A study of Mus musculus with 6 samples.

Results

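The 7 genes described here, H19, Igf2, Ascl2, Kcnq1ot1, Kcnq1, Cdkn1c and Phlda2, make up the core of the imprinted H19-Igf2 and Kcnq1ot1 clusters on distal mouse chromosome 7. They were picked by name from the 42450 genes of the count table, with earlier results of the comparison between Srrm2+/- and WT cells known, so the values of that comparison are given for them as a description and without a test. Of the 7 genes, 6 held enough reads to be among the 18905 genes tested, and Kcnq1 did not. H19 passed the low count filter through the Srrm2+/- libraries alone.

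Imprinted genes are transcribed mainly from the allele inherited from 1 parent, and the choice of allele is kept by DNA methylation at control regions. At the first cluster, H19 and Igf2 share enhancers, and CTCF bound to an unmethylated control region near H19 keeps those enhancers away from Igf2, so that in most embryonic tissues H19 is transcribed from the maternal and Igf2 from the paternal copy. At the second cluster, the long non-coding RNA Kcnq1ot1 starts inside an intron of Kcnq1 on the paternal copy and silences neighbours there, among them Cdkn1c, Phlda2 and, in the placenta, Ascl2.

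Total RNA was sequenced from E14tg2a.4 cells, a male line of mouse embryonic stem cells, with 3 libraries of the parental cells (WT, labelled wild-type) and 3 of cells heterozygous for a truncation of Srrm2, a gene of a nuclear speckle splicing factor (Srrm2+/-). The Srrm2+/- cells are 1 gene-trap clone, CG0630, made from the same parental line. Both were kept on gelatin with leukemia inhibitory factor (LIF) and finally in serum-free ESGRO medium with LIF. Per the study's methods the replicates were thawed from separately frozen batches, and the WT batches were frozen at higher passages than the Srrm2+/- batches, so that genotype, clone and passage cannot be told apart.

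The libraries held between 54151532 and 69933465 estimated counts. Srrm2 itself lay between 56.2 and 62.3 CPM in Srrm2+/- and between 91.2 and 98.3 CPM in WT, where CPM are estimated counts scaled to a common library size by the TMM method of edgeR. Its log2 fold change was -0.69 with an SE of 0.05 (edgeR adjusted p 2.38e-05). The labelled cell type carried its markers, since 8 embryonic stem cell markers summed to 5130 to 5310 CPM in WT and 4420 to 4540 CPM in Srrm2+/-. Of the 8, 6 were called lower, Nanog and Klf4 among them, against 11.7% of all tested genes. A gene is called when its edgeR adjusted p over all tested genes is under 0.05. Counts are per gene, so the parental allele behind a change was not measured. In bulk RNA, more cells with a transcript and more transcript per cell cannot be told apart.

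Each locus carries short sequences by which it can be recognised, and those that bear on the genes below are printed here. H19 is the host of miR-675, and Igf2 of miR-483 in an intron. The mature microRNAs, from RefSeq (GRCm38.p6, minus strand), are shown 5′ to 3′ with the seed, bases 2 to 8, in capitals.
miR-675-5p (chr7:142577112-142577133): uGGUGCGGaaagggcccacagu
miR-675-3p (chr7:142577078-142577099): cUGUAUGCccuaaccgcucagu
miR-483-5p (chr7:142654968-142654989): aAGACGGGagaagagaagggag
miR-483-3p (chr7:142654932-142654952): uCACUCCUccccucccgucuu
The 4 seeds differ from each other. The miR-675 hairpin is exonic, lying in 3 of the 7 annotated H19 transcripts (bases 997 to 1080 of the 2286 bases of H19-202), whereas the miR-483 hairpin lies in 0 of the 9 spliced Igf2 transcripts. The separate gene entries Mir675 and Mir483 held 0 counts in every library, which is at or under the floor of 3 counts per library and gives no comparison. Small RNA libraries were not analysed here.

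DNA methylation acts on CpG dinucleotides, so the starts of the members are shown with CG in capitals (RefSeq, GRCm38.p6, minus strand, 250 bases before to 50 after the start). RefSeq promoters matched 4 of the 7 members, and H19, Cdkn1c and Kcnq1 had no entry. For Igf2, which has 4 listed starts, those with the most and the fewest CpG are printed, and with them the starts of Phlda2 and Kcnq1ot1, which differed from Igf2 in the comparison below.
Igf2, start with the most CpG (chr7:142658755-142659054): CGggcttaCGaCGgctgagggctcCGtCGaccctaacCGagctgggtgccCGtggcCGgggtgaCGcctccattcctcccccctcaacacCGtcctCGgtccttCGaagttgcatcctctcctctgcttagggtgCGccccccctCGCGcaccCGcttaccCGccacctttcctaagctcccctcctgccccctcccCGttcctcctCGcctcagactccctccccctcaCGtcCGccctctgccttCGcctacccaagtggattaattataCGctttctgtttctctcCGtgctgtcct
Igf2, start with the fewest CpG (chr7:142666767-142667066): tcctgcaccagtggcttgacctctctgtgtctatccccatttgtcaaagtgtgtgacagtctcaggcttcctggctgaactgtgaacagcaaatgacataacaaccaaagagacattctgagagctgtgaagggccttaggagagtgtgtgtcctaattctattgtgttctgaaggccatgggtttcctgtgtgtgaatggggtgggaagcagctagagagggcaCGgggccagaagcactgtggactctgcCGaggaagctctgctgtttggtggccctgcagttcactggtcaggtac
Phlda2 (chr7:143502475-143502774): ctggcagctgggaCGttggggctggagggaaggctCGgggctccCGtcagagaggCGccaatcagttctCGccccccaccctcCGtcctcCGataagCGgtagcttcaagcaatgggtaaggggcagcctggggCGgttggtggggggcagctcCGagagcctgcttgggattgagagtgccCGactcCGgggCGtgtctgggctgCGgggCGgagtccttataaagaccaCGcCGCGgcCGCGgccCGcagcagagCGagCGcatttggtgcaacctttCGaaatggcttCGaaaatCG
Kcnq1ot1 (chr7:143296498-143296797): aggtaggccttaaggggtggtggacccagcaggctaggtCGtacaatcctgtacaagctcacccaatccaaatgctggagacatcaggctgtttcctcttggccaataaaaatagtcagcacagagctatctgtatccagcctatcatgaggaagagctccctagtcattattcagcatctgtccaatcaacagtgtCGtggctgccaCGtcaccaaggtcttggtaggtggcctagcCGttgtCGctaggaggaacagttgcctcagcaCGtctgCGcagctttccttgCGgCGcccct
The 4 Igf2 starts held 24, 14, 7 and 2 CpG, against a median of 7 over 32851 RefSeq promoters of the same length. The Phlda2 start held 26 CpG, the Ascl2 start 23 and the Kcnq1ot1 start 9. The GC box GGGCGG, searched on both strands, occurred in the Igf2 starts with 24 and 7 CpG and in those of Phlda2 and Ascl2, and in 35.7% of all promoters. TATAAA, also on both strands, was found in the Phlda2 start alone among these, and in 13.6% of all promoters. These are descriptions of letters in 300-base windows, and methylation was not analysed here.

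In Srrm2+/- cells the non-coding RNA H19 and the growth factor gene Igf2 were both far above WT, Cdkn1c was moderately above, Phlda2 was below, and Kcnq1ot1, Ascl2 and Kcnq1 lay within the spread of the WT libraries. Of the 6 tested members, 4 were called, 3 of them higher and 1 lower. Over all tested genes 25.3% were called, 13.6% higher and 11.7% lower. The 6 libraries did not overlap between the groups for the same 4 members, 3 higher and 1 lower in Srrm2+/-, where 21.4% of all tested genes were higher and 20% lower without overlap. Since the members were taken with this comparison known, nothing is read from these shares.

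**Figure D1:**
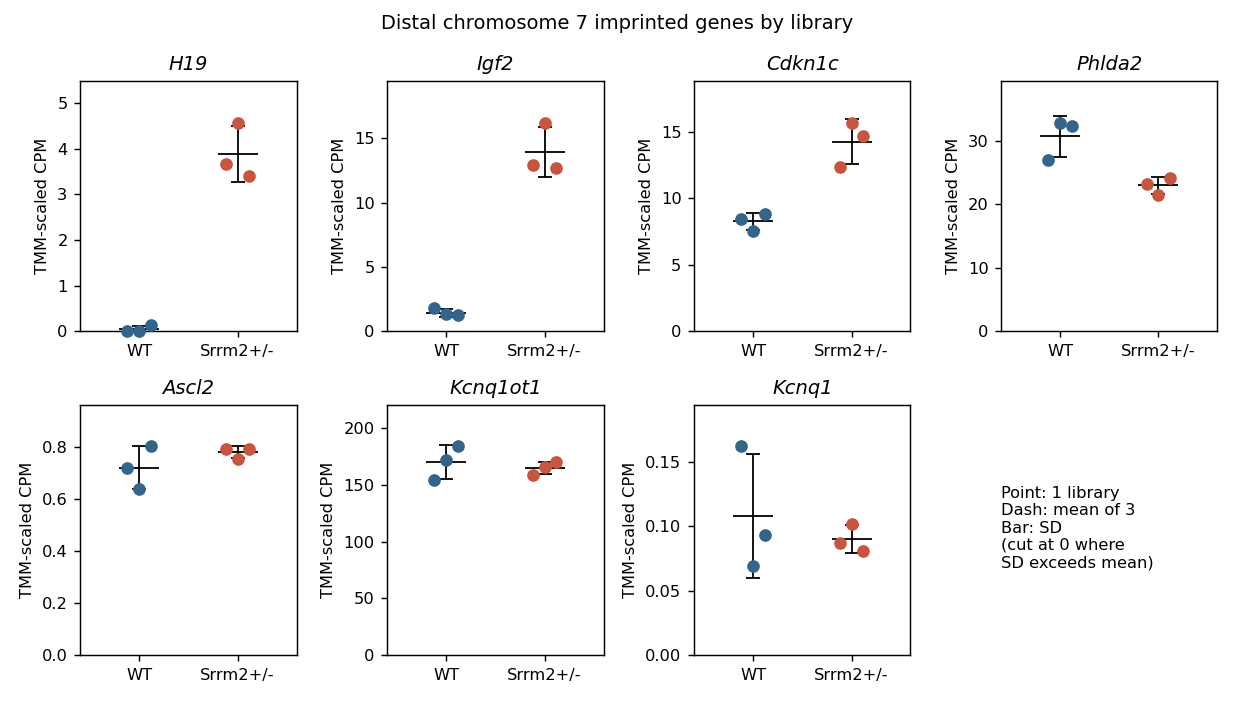
TMM-scaled CPM of each member (y axis, linear, from 0) in the 3 WT and 3 Srrm2+/- libraries; each point is 1 library, the dash the mean and the bar the SD. H19, Igf2 and Cdkn1c are higher in all Srrm2+/- libraries, Phlda2 is lower, and the groups overlap for Ascl2, Kcnq1ot1 and Kcnq1.

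H19 (ENSMUSG00000000031, chromosome 7, 142575529 to 142578143, minus strand, GRCm38) is a spliced long non-coding RNA that is abundant in fetal endoderm and mesoderm and in the placenta. Estimated counts of H19 were 0, 0 and 7 over the WT libraries, against 253, 315 and 210 over the Srrm2+/- libraries. In normalised units these were 0, 0 and 0.131 CPM in WT and 3.66, 4.57 and 3.40 CPM in Srrm2+/-. All WT libraries were at or near the floor and all Srrm2+/- libraries were well above it. The fitted log2 fold change was 6.46 (SE 0.58), rank 5 from the top among all tested genes. Its size rests on the 7 counts of WT replicate 3. Without that library WT had 0 counts, and H19 was at least 73.2-fold higher in Srrm2+/- (log2 6.19, with 3 counts in each WT library as the floor). That bound does not cover WT replicate 3. With it kept, the fitted log2 fold change was 5.9 without WT replicate 1 and 5.87 without WT replicate 2, both under the bound.

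Igf2 (ENSMUSG00000048583, 142650766 to 142666816, minus strand) encodes the fetal insulin-like growth factor that signals through the receptors Igf1r and Insr. Its counts were 99, 76 and 66 in WT and 894, 1119 and 784 in Srrm2+/-. These correspond to 1.78, 1.31 and 1.23 CPM in WT and 12.9, 16.2 and 12.7 CPM in Srrm2+/-. The lowest Srrm2+/- library was thus several times above the highest WT library. Mean levels were 1.44 ± 0.298 and 14 ± 1.97 CPM (SD, n = 3 each), a 9.65-fold difference (log2 3.27, SE 0.16). Sequence of Igf2 is shared in part with other annotated transcripts. Of its 31-base words, searched on both strands, 63.1% also occurred in another gene and 61.9% in the read-through gene Gm49394. Gm49394 was not among the 71 other genes that the count table lists within 500 kb of the outermost members. Whether reads of Igf2 were divided with its transcripts is therefore not known.

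Both members of the H19-Igf2 cluster were higher, and the ratio between them differed as well. Per kb of exon, the ratio of H19 to Igf2 was 0, 0 and 0.247 in the WT libraries and 0.658, 0.655 and 0.623 in the Srrm2+/- libraries. The Srrm2+/- ratios were close to each other and above those of WT. The WT ratio rests on 0 to 7 counts of H19 and has little precision. The antisense gene Igf2os, which overlaps Igf2, had 8, 6 and 3 counts in WT and 55, 54 and 28 in Srrm2+/-, and was called higher (log2 2.71, SE 0.42, edgeR adjusted p 0.00162). Like H19, Igf2os passed the low count filter through the Srrm2+/- libraries alone, so only a rise could be called. The ratio of Igf2os to Igf2 per kb averaged 0.0734 ± 0.0213 over the WT and 0.052 ± 0.0138 over the Srrm2+/- libraries (SD, n = 3), with overlapping libraries. Whether the counting used strand is not given in the sources used here, so reads of this antisense pair may not have been told apart.

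Markers of other cell types were measured beside these 2 genes, since H19 and Igf2 are abundant in differentiated embryonic and extraembryonic cells. Over all tested genes, 13.6% were called higher and 11.7% lower. A sum of 7 mesoderm markers was 1.53 to 2.35 CPM in WT and 5.33 to 5.90 CPM in Srrm2+/-. Of its 5 tested genes, 3 were called higher (T, Kdr and Foxf1), and Mixl1 and Tbx6 were not called. Kdr and Foxf1 had under 10 counts in every WT library. They passed the low count filter through the Srrm2+/- libraries alone, so only a rise could be called. Mesp1 and Hand2 were not tested. For 7 trophoblast markers without Ascl2 the sum was 4.44 to 4.90 CPM in WT and 9.53 to 10.4 CPM in Srrm2+/-, with 2 of 4 tested genes called higher (Krt7 and Eomes). Cdx2 was not tested, with 0 counts in every WT library and 5, 8 and 17 in Srrm2+/-. For 7 fibroblast markers the sum was 2.97 to 3.23 CPM in WT and 5.33 to 7.54 CPM in Srrm2+/-, with 3 of 5 called higher (Col1a1, Col1a2 and Postn). Postn, under 10 counts in every WT library, also passed the filter through the Srrm2+/- libraries alone. Col1a2, with 6 counts in WT replicate 1, needed those libraries to pass. Dcn was not tested, with 0 counts in every WT library and 4, 2 and 3 in Srrm2+/-, near the floor of 3 counts. The sum of 7 primitive endoderm markers overlapped between the groups, at 2.39 to 2.70 CPM in WT and 2.56 to 3.64 CPM in Srrm2+/-, with 1 of 5 called higher (Dab2). Single genes carried most of the rise in each sum that differed, with T from 0.886 to 3.29 CPM, Krt7 from 2.81 to 7.23 CPM and Col1a2 from 0.197 to 2.96 CPM in the group means. The trophoblast markers Elf5 and Gata3 and the fibroblast marker Thy1 were not called, with means of 0.677, 0.576 and 1.93 CPM in WT and 0.534, 0.748 and 1.19 CPM in Srrm2+/-. The part of these cells, and of the lower stem cell markers, in the levels of H19 and Igf2 was not tested. The calls of Foxf1 and Eomes lay near the threshold (edgeR adjusted p 0.0291 and 0.0387). DESeq2 on all 6 libraries did not make them (adjusted p 0.104 and 0.088), and most edgeR fits with 1 library left out lost them. Without any 1 of the 3 Srrm2+/- libraries, the adjusted p was 0.0676 to 0.109 for Foxf1 and 0.0532 to 0.139 for Eomes. Without WT replicate 3 it was 0.103 for Foxf1 and 0.0987 for Eomes. Foxf1 was also lost without WT replicate 2 (0.0808) and Eomes without WT replicate 1 (0.109).

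At the second cluster, the non-coding RNA and the genes it silences did not change together. Kcnq1ot1 (ENSMUSG00000101609, 143203458 to 143296549, minus strand) is an unspliced transcript of 93092 bases that runs antisense through Kcnq1. Its counts were 8533, 9960 and 9874 in WT and 11018, 11438 and 10507 in Srrm2+/-. In normalised units these were 154, 172 and 184 CPM in WT and 159, 166 and 170 CPM in Srrm2+/-. Every Srrm2+/- library fell inside the range of the WT libraries. The log2 fold change was -0.04 (SE 0.06), and its sign turned without WT replicate 3, to 0.0201.

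Kcnq1 (ENSMUSG00000009545, 143106362 to 143427042, plus strand) encodes a voltage-gated potassium channel subunit of heart and epithelia. The WT libraries held 9, 4 and 5 counts of it, and the Srrm2+/- libraries 6, 7 and 5. With 18 counts in each group it did not pass the filter on low counts, and a difference was not detectable at this depth. Of the 31-base words of Kcnq1, 2.40% also occurred in Kcnq1ot1 in the search of both strands. The 2 transcripts run on opposite strands, so this share applies only if reads were counted without strand.

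Cdkn1c (ENSMUSG00000037664, 143458339 to 143461050, minus strand) encodes p57, a CDK inhibitor that restrains the cell cycle in differentiating cells and is expressed from the maternal copy. Its counts were 469, 437 and 472 in WT and 859, 1082 and 904 in Srrm2+/-. These correspond to 8.45, 7.56 and 8.81 CPM in WT and 12.4, 15.7 and 14.7 CPM in Srrm2+/-. All Srrm2+/- libraries were above all WT libraries. The difference was 1.72-fold (log2 0.78, SE 0.10), and with any 1 library left out the log2 value stayed between 0.71 and 0.88. Of its 31-base words, searched on both strands, 27.2% also occurred in the overlapping antisense gene Gm44732, which was likewise not among the 71 other genes listed.

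Phlda2 (ENSMUSG00000010760, 143501545 to 143503150, minus strand) encodes a small pleckstrin homology protein that limits placental growth, and is likewise a maternally expressed target of Kcnq1ot1. Its counts were 1501, 1903 and 1733 in WT and 1614, 1484 and 1492 in Srrm2+/-. After scaling, the levels were 27.0, 32.9 and 32.4 CPM in WT and 23.3, 21.5 and 24.2 CPM in Srrm2+/-. The Srrm2+/- libraries were all below WT, by a small margin to WT replicate 1. Means were 30.8 ± 3.24 CPM for WT and 23 ± 1.36 CPM for Srrm2+/- (SD over 3 libraries), and the log2 fold change was -0.42 (SE 0.08). Phlda2 shared no 31-base word with another gene.

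Ascl2 (ENSMUSG00000009248, 142966829 to 142969264, minus strand), a basic helix-loop-helix factor needed for the placental spongiotrophoblast, lies between the clusters, 391.1 kb from the start of H19. The WT libraries held 40, 37 and 43 counts, and the Srrm2+/- libraries 55, 52 and 49. These are 0.721, 0.640 and 0.803 CPM in WT and 0.795, 0.754 and 0.794 CPM in Srrm2+/-. WT replicate 3 was above all Srrm2+/- libraries, and the groups overlapped (log2 fold change 0.12, SE 0.20).

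Cdkn1c and Phlda2, both maternally expressed and silenced by the same RNA, thus lay on opposite sides of WT. Per kb of exon, the ratio of Cdkn1c to Phlda2 was 0.172, 0.126 and 0.15 in the WT libraries and 0.293, 0.401 and 0.333 in the Srrm2+/- libraries. All Srrm2+/- libraries were above all WT libraries in this ratio. The ratio of Cdkn1c to Kcnq1ot1 averaged 2.23 ± 0.257 over the WT and 3.94 ± 0.38 over the Srrm2+/- libraries (SD, n = 3), and that of Cdkn1c to Cdkn1b, a related CDK inhibitor from another chromosome, was 0.305 ± 0.0308 and 0.577 ± 0.0723. For Igf2 against Igf2r, the receptor that removes IGF2 from the cell surface, the ratio was 0.0195 ± 0.00607 in WT and 0.186 ± 0.0233 in Srrm2+/-. These ratios use the values that describe the members and were not tested.

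**Figure D2:**
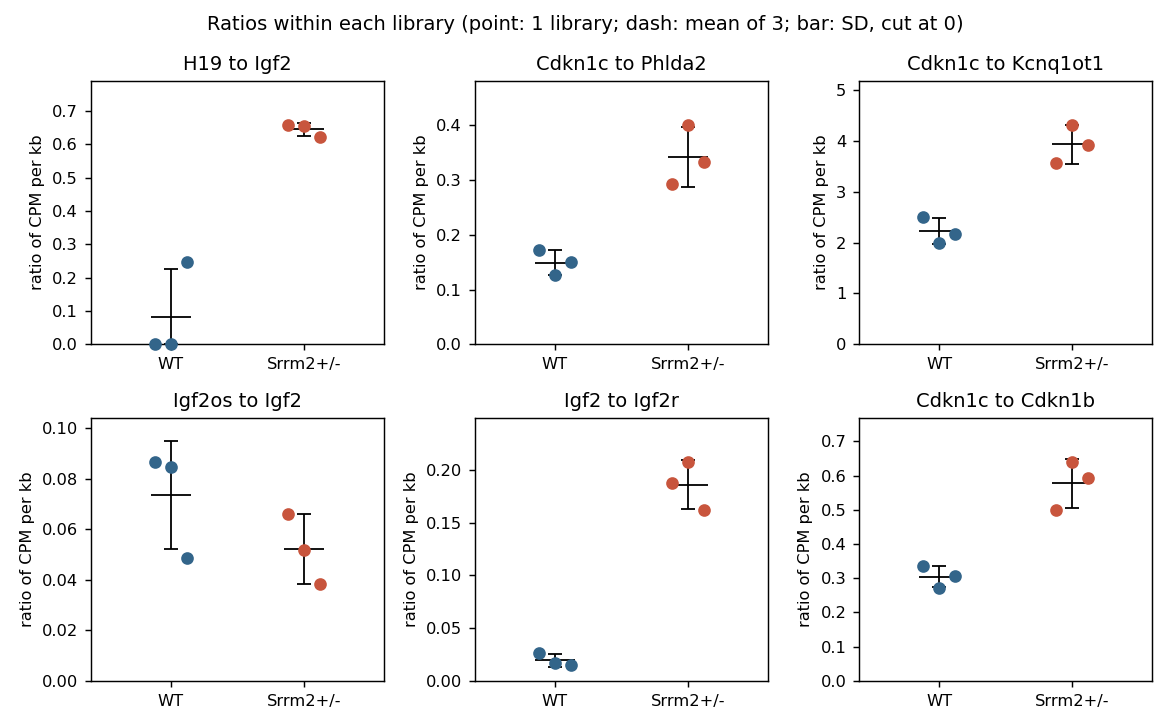
Ratios of CPM per kb of exon within each library (y axes, linear, from 0), with 1 point per library, the mean as a dash and the SD as a bar. All ratios of Cdkn1c, H19 to Igf2 and Igf2 to Igf2r are higher in Srrm2+/- without overlap, while Igf2os to Igf2 overlaps between the groups.

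On the scale of CPM per kb of exon, the order of the members changed between the groups. In WT, Phlda2 stood highest at 27.5 ± 2.89, followed by Cdkn1c at 4.06 ± 0.316, Kcnq1ot1 at 1.83 ± 0.165, Ascl2 at 0.444 ± 0.0501, Igf2 at 0.252 ± 0.0520, Kcnq1 at 0.0264 ± 0.0118 and H19 at 0.0177 ± 0.0307 (SD, n = 3 each). Only Kcnq1 and H19 overlapped among neighbours of this order. In Srrm2+/-, Phlda2 was at 20.5 ± 1.21, Cdkn1c at 6.99 ± 0.821, Igf2 at 2.44 ± 0.345, Kcnq1ot1 at 1.77 ± 0.0599, H19 at 1.58 ± 0.249, Ascl2 at 0.481 ± 0.0144 and Kcnq1 at 0.0219 ± 0.00258. There Kcnq1ot1 and H19 overlapped. Among 18825 tested genes with a known length, the level of Igf2 was at percentile 19.5 in WT and 53.1 in Srrm2+/-, and that of H19 at percentile 0.6 and 46, while Phlda2 stayed near the top, at 90.5 and 87.8. With the longest transcript in place of all exons as the length, the WT levels of Igf2 and Phlda2 were 0.306 and 40.7.

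The members span 928 kb, and the genes around them were examined to show how far the changes reached. Within 500 kb of the outermost members the table listed 71 further genes, of which 24 had 0 counts in every library and 28 were tested. Of the 28, 10 were called (35.7%, against 25.3% of all tested genes), 7 higher and 3 lower, with a median log2 fold change of 0.01. Among those called higher, Igf2os and Gm15579 passed the low count filter through the Srrm2+/- libraries alone, so only a rise could be called. The largest rises were those of Lsp1, Igf2os and Dusp8, at the H19 end of the window, and the largest falls those of the small nucleolar RNA Gm23297, Tspan32os and Slc22a18.

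Lsp1, which encodes an F-actin binding protein of leukocytes and starts 117.3 kb before H19, had 11, 10 and 12 counts over the WT and 95, 122 and 67 over the Srrm2+/- libraries (log2 2.82, SE 0.28, edgeR adjusted p 0.000134). Dusp8, a phosphatase of stress-activated kinases, starts 482.3 kb before H19 and had 12, 24 and 18 counts in WT and 126, 118 and 82 in Srrm2+/- (2.32, SE 0.27, edgeR adjusted p 0.000333). The other tested genes that start before H19, Mrpl23 and Ctsd, named here after their values were seen, were not called (log2 fold changes -0.19 and -0.01, edgeR adjusted p 0.595 and 0.926). The muscle troponin gene Tnnt3, also singled out after its values were seen, did not pass the filter and had 1, 0 and 0 counts in WT and 11, 15 and 23 in Srrm2+/-. Genes higher in Srrm2+/- on this side of H19 were thus interspersed with genes that did not pass the test.

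Next to the Kcnq1ot1 cluster, Slc22a18, an imprinted transporter gene that starts between Cdkn1c and Phlda2, was at 2.65, 2.70 and 2.63 CPM in WT and 1.58, 1.57 and 1.41 CPM in Srrm2+/- (log2 -0.81, SE 0.14, edgeR adjusted p 0.0027). Like Phlda2 it was lower, whereas Cdkn1c beside it was higher. Osbpl5, an oxysterol-binding protein gene at the far end, was at 0.721, 0.778 and 0.747 CPM in WT and 3.31, 3.49 and 2.72 CPM in Srrm2+/- (2.08, SE 0.16, edgeR adjusted p 3.82e-05). Gm23297 and Tspan32os had log2 fold changes of -1.06 and -0.89 (edgeR adjusted p 0.031 and 0.0198), and each call was lost in some of the fits with 1 library left out. Those fits called 3515 to 4122 of all genes, in place of 4781. Without Srrm2+/- replicate 1 the adjusted p was 0.0592 for Gm23297 and 0.0682 for Tspan32os, and without WT replicate 2 it was 0.0588 and 0.0839. Without WT replicate 1 or WT replicate 3 it was 0.0866 and 0.0724 for Gm23297, and without Srrm2+/- replicate 2 it was 0.0582 for Tspan32os. The count of neighbours called lower fell from 3 to 1 without WT replicate 2 and without Srrm2+/- replicate 1. Beyond the genes named by rule, Gm15579 and Shank2 were also called higher (2.23 and 1.29, edgeR adjusted p 0.0109 and 0.0181), and lost the call without WT replicate 2 (0.0502) and without Srrm2+/- replicate 2 or 3 (0.0625 and 0.0543), respectively.

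**Figure D3:**
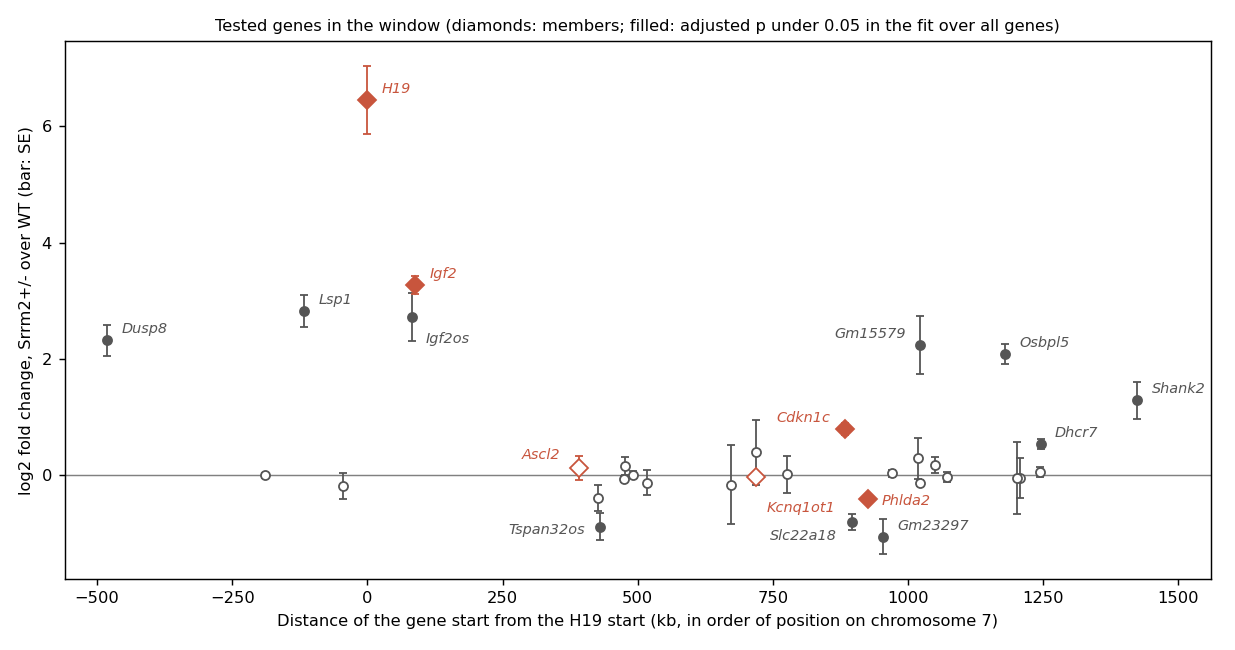
Log2 fold change of each tested gene (y axis, bars are SE) by the distance of its start from the H19 start in kb (x axis); diamonds are members, circles neighbours, and filled symbols are called. H19 at 6.46 and Igf2 at 3.27 stand highest, and of the tested genes between Ascl2 and Cdkn1c none is called higher.

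Among 18 further genes known or reported to be imprinted in this domain, 12 were tested, and 3 were called higher (Igf2os, Osbpl5 and Dhcr7) and 1 lower (Slc22a18), with a median log2 fold change of -0.02. This is 33.3% called, against 25.3% of all tested genes. Dhcr7, of the last step of cholesterol synthesis, rose from a mean of 5.91 ± 0.0829 to one of 8.51 ± 0.504 CPM (SD, n = 3), which is 0.53 on the log2 scale (SE 0.09, edgeR adjusted p 0.00216). The 8 others, Cd81, Tssc4, Tspan32, Nap1l4, Tnfrsf22, Tnfrsf26, Trpm5 and Cars, did not pass the threshold. The insulin gene Ins2, which adjoins Igf2, had 0 counts in all libraries. The enhancer-side transcript Nctc1 had 8, 2 and 0 counts in WT and 10, 0 and 11 in Srrm2+/-, and the groups overlapped.

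The receptors and adaptors that receive the IGF2 signal were listed to set them beside Igf2. Of 8 tested genes of this list, 6 were called higher and 0 lower, with a median log2 fold change of 0.38 against 0 over all tested genes, of which 13.6% were called higher and 11.7% lower. The adaptors Irs1 and Irs2, which link the receptors to PI3 kinase, rose from 1.98 ± 0.0232 to 4.69 ± 0.626 CPM and from 3.97 ± 0.281 to 10.1 ± 0.441 CPM (SD over 3 libraries), by 1.24 and 1.35 on the log2 scale (edgeR adjusted p 0.000257 and 1.72e-05). The receptor genes Igf1r and Insr rose less (0.55 and 0.36, edgeR adjusted p 0.00152 and 0.00797). Shc1 and Grb10 were called at 0.21 and 0.16 (edgeR adjusted p 0.00811 and 0.035). Grb10 kept its call without WT replicate 2 and lost it without any other library (adjusted p 0.0545 to 0.101). Igf2r, itself imprinted and the sink for IGF2, averaged 123 ± 11.6 CPM over the WT and 122 ± 9.08 CPM over the Srrm2+/- libraries (SD, n = 3), a log2 difference of -0.01 (SE 0.08, edgeR adjusted p 0.922). Irs4 did not pass the threshold (0.41, edgeR adjusted p 0.198), and Igf1 and Ins1 were not tested.

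Of 6 tested genes for IGF binding proteins, which carry IGF1 and IGF2 outside the cell, 4 were called higher and 1 lower (83.3% called, against 25.3% of all tested genes), with a median log2 fold change of 1.23. Igfbp3 rose from 8 ± 0.848 to 21.5 ± 0.373 CPM and Igfbp4 from 1.59 ± 0.232 to 4.32 ± 0.589 CPM (SD over 3 libraries), by 1.43 and 1.44 on the log2 scale (edgeR adjusted p 4.93e-06 and 0.000317). Igfbp6 and Igfbp7 were higher at low levels (1.78 and 1.02, edgeR adjusted p 0.0149 and 0.0164), Igfbp5 missed the threshold (1.04, edgeR adjusted p 0.0579), and Igfbp2, the most abundant of them, was lower (-0.19, edgeR adjusted p 0.0172). Igfbp6 passed the low count filter through the Srrm2+/- libraries alone, so only a rise could be called for it. The calls of this list fell from 5 to 3 without WT replicate 2 or Srrm2+/- replicate 1. Igfbp2 lost its call without either of these libraries (adjusted p 0.0668 and 0.0573), Igfbp7 without Srrm2+/- replicate 1 (0.0624), and Igfbp6 without WT replicate 2, WT replicate 3 or Srrm2+/- replicate 2 (0.0554, 0.0552 and 0.0639). Of the 3 genes for proteins that bind Igf2 mRNA, Igf2bp1 was called higher (0.32, edgeR adjusted p 0.00165), Igf2bp2 lower (-0.54, edgeR adjusted p 0.00044), and Igf2bp3, at the median of 0.12, was not called (edgeR adjusted p 0.113).

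The factors that set the insulator and the imprints were listed next. Ctcf, whose protein binds the H19 control region, averaged 132 ± 0.827 CPM over the WT and 132 ± 6.05 CPM over the Srrm2+/- libraries (SD, n = 3), and did not pass the threshold (edgeR adjusted p 0.989). Of 9 CTCF and cohesin genes, with a median of -0.10 and 33.3% called against 25.3% of all tested genes, Stag2 was called higher (0.31, edgeR adjusted p 0.00198) and Ctcfl and Smc1a lower (-0.81 and -0.14, edgeR adjusted p 0.0206 and 0.026). The count fell from 3 to 1 without WT replicate 2 or Srrm2+/- replicate 3. Ctcfl was also lost without Srrm2+/- replicate 1 (adjusted p 0.0659), and Smc1a without any library except Srrm2+/- replicate 1 (0.0575 to 0.0957).

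Among 7 genes that keep imprints through cell division and reprogramming, the median was -0.07 and 42.9% were called, against 25.3% of all tested genes. Dppa3 was called higher (0.71, edgeR adjusted p 0.000253) and Zfp57 and Setdb1 lower (-0.25 and -0.16, edgeR adjusted p 0.00261 and 0.0291). Setdb1 kept its call only without Srrm2+/- replicate 3 and lost it without any other library (adjusted p 0.0598 to 0.0839). Zfp57, the zinc finger protein that guards methylated control regions, lay at 289, 302 and 287 CPM in WT and 237, 247 and 254 CPM in Srrm2+/-. The maintenance genes Dnmt1, Uhrf1 and Trim28 and the zinc finger gene Zfp445 did not pass the threshold. Of 6 de novo DNA methylation and TET genes, with a median of 0.67, 83.3% were called, against the same 25.3%. Dnmt3a, Dnmt3b, Dnmt3l and Tet3 were called higher (0.85, 0.95, 0.66 and 0.69, edgeR adjusted p 1.95e-05, 0.00013, 0.000381 and 0.00513) and Tet1 lower (-0.35, edgeR adjusted p 0.00324), while Tet2 was not called.

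Of 8 genes for chromatin factors tied to silencing by Kcnq1ot1, with a median of -0.05 and 37.5% called against 25.3% of all tested genes, the H3K9 methyltransferase genes Ehmt1 and Ehmt2 were called higher (0.26 and 0.49, edgeR adjusted p 0.00594 and 5.02e-05) and the polycomb subunit gene Suz12 lower (-0.29, edgeR adjusted p 0.00422). Eed, Ezh2, Rnf2, Ring1 and Hnrnpk did not pass the threshold. Of the 6 other CDK inhibitor genes, with a median of -0.01 and 33.3% called, Cdkn2a and Cdkn2b were called higher (0.67 and 2.37, edgeR adjusted p 0.0116 and 0.000364), and Cdkn1a, Cdkn1b, Cdkn2c and Cdkn2d were not called. The nearest relatives of Cdkn1c, Cdkn1a and Cdkn1b, had log2 fold changes of 0.06 and -0.14 (SE 0.11 and 0.05, edgeR adjusted p 0.756 and 0.0799).

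Paralogs of the members and channel partners of Kcnq1 gave a further list. Of its 7 tested genes, 4 were called higher and 1 lower (71.4%, against 25.3% of all tested genes), with a median log2 fold change of 0.63. Phlda1, a relative of Phlda2, was at 0.0721, 0.121 and 0.131 CPM in WT and 1.79, 1.58 and 1.69 CPM in Srrm2+/- (log2 3.94, SE 0.26, edgeR adjusted p 1.38e-05), and Phlda3 was called higher as well (0.73, edgeR adjusted p 0.0019). Both were thus higher where Phlda2 was lower. Phlda1 passed the low count filter through the Srrm2+/- libraries alone, so only a rise could be called for it. Of the potassium channel genes, Kcnq5 and Kcnq3 were called higher (1.31 and 0.63, edgeR adjusted p 0.0112 and 0.0422). Kcnq3 was lost without any library except Srrm2+/- replicate 1 (adjusted p 0.0553 to 0.139). Ascl4, a relative of Ascl2, did not pass the threshold, and Ascl3, Ascl5 and the channel partners Kcne1 to Kcne4 were not tested.

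**Figure D4:**
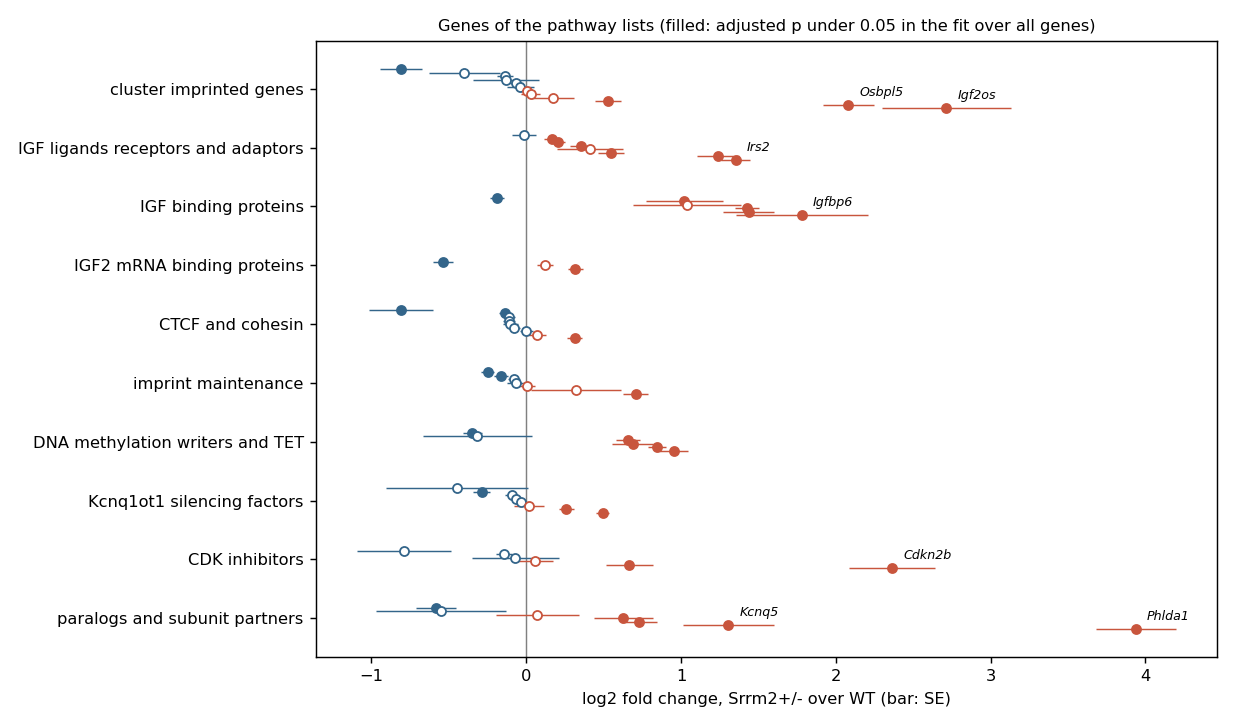
Log2 fold change with SE (x axis) of every tested gene in the 10 pathway lists (rows); filled points are called, red points lie above 0 and blue points below. The IGF ligand, receptor and adaptor list and the IGF binding proteins lie mostly to the right, and the CTCF and cohesin genes near 0 apart from Ctcfl at -0.81.

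For each tested member, the genes with the most similar profile were sought among the 12063 tested genes whose log2 CPM averaged 1 or more, by Pearson correlation of log2 CPM over the 6 libraries. These values are a description, since the 6 libraries fall into 2 groups and any gene that separates them scores high. H19 was most like Susd1, Sgce and Egr1 (r of 0.9990, 0.9987 and 0.9981), of which Sgce is itself an imprinted gene. Igf2 was most like Ddah1, Pcdh18 and Errfi1 (0.9996, 0.9991 and 0.9987). For Cdkn1c these were Zfyve16, Nosip and Fbxo9 (0.9989, 0.9966 and 0.9940), and for Phlda2 they were Akap1, Stat5a and Bcat1 (0.9962, 0.9962 and 0.9929). Ascl2 and Kcnq1ot1, whose groups overlapped, reached lower values, from 0.9855 for Gm17354 to 0.9776 for Rpl10a-ps1 with Mmel1 at 0.9791, and from 0.9858 for Rbm3os to 0.9695 for Arhgef18 with Tubgcp3 at 0.9807.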

How the data were processed

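Reads of the 6 total RNA libraries (stranded kit, 3 WT and 3 Srrm2+/-) were pseudo-aligned by the authors with Kallisto 0.46.1 to the transcripts of GENCODE release M24 (mm10), and the deposited table holds their estimated counts for each gene without normalization. Whether strand was used is not given in the sources used here. Sample titles gave the group and the replicate number. Estimated counts were rounded to whole numbers. Of 42450 identifiers, 42156 matched GENCODE release M21 (GRCm38), which gave symbols, coordinates counted from 1 and exon lengths.

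Genes past filterByExpr (minimum count 10, minimum total 15) were fitted with edgeR 4.0.16 in R 4.3.3 (TMM, glmQLFit and glmQLFTest, two-sided, genotype as the sole term, Benjamini-Hochberg adjustment over all 18905 genes). The study's methods name edgeR's quasi-likelihood test with a filter on low counts and an adjusted p under 0.05, and the other settings were chosen here. The SE is the absolute log2 fold change divided by the square root of F. P-values measure the spread between these libraries, and every pair within a group differed beyond sampling noise (lowest chi-square over degrees of freedom 14.7). Correlations of log2 CPM were 0.985 to 0.989 within groups and 0.971 to 0.975 between them. Floors cover counting error only.

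The members, the gene lists and the tests were chosen with earlier results of these data known. The named genes are Srrm2, the members, all genes of the lists, the 3 largest rises and 3 largest falls among called neighbours, and the 3 genes most correlated with each tested member, with exceptions stated. The alternatives were RLE and upper quartile scaling, DESeq2 1.42.0, limma voom (limma 3.58.1), other low count filters, a replicate block, each library left out in turn, neighbour windows of 200 and 1000 kb, and the longest transcript as length. Shared sequence was counted as 31-base words present, as such or as their reverse complement, in transcripts of another gene. Results of 3 genes of the lists are not reported here. No set test was run, and splicing was not analysed here.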

Additional observations from a re-analysis of the deposited data

How the results depend on the processing

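The number of members called was 4 under every alternative fit, and no called member changed direction. Over all alternatives the log2 fold change of Igf2 lay between 3.15 and 3.45, that of Cdkn1c between 0.71 and 0.88, that of Phlda2 between -0.50 and -0.37 and that of H19 between 5.87 and 10.93, where the last comes from the fit without WT replicate 3, in which WT has 0 counts. The value of Kcnq1ot1 ranged from -0.11 to 0.0201 with 1 library left out, and turned its sign without WT replicate 3. With the replicate number as a block, the log2 fold changes were 6.47 for H19, 3.27 for Igf2, 0.78 for Cdkn1c, -0.42 for Phlda2, 0.12 for Ascl2 and -0.0398 for Kcnq1ot1, and 4166 genes were called in place of 4781. The numbers do not pair the libraries, since deviations from the group means correlated at -0.028, -0.034 and -0.03 for replicates 1, 2 and 3. Under the block, Tspan32os, Gm23297, Grb10, Smc1a, Kcnq3, Dppa5a, Eomes and Foxf1 were not called, and 1 neighbour in place of 3 was called lower. Neighbours called numbered 10 of 28 tested (35.7%), 7 of 22 within 200 kb (31.8%) and 14 of 37 within 1000 kb (37.8%). Where genes needed 1 CPM in every library of a group, 5 neighbours were called. Igf2os, Tspan32os, Gm23297, Gm15579 and Shank2 did not pass that filter. With the longest transcript as length, the WT level of Igf2 was 0.306 and that of Phlda2 40.7 CPM per kb. DESeq2 called 5 CTCF and cohesin genes in place of 3 and did not call Tspan32os, Eomes or Foxf1. Of 60 other named genes that were called, 45 kept the call under every alternative that tested them, 15 lost it under at least 1, and 0 reversed. With 1 library left out, 3515 to 4122 of all genes were called in place of 4781. RLE and upper quartile scaling moved the median of all genes by -0.0014 and 0.0048. Depth limits what can be said of Kcnq1, of Nctc1 and of H19 in WT, where libraries held 0 to 11 counts.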
